A study of Mus musculus with 6 samples.

Results

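The 4 mature miRNAs of the neighbouring miR-497a and miR-195a genes, mmu-miR-195a-5p, mmu-miR-195a-3p, mmu-miR-497a-5p and mmu-miR-497a-3p, were followed probe by probe on arrays of type H and type L endothelial cells (ECs). All non-control spots that carry these names were taken, which gave 8 of the 4415 distinct probes and 4 of the 1881 mouse miRNAs on the array. Type H ECs (CD31hiEmcnhi) and type L ECs (CD31loEmcnlo) are bone capillary endothelial cells told apart by how much CD31 and endomucin they carry on their surface. Each cell type was measured on 3 arrays, H1 to H3 and L1 to L3, with 1 sample per array. All samples came from wild type C57BL/6 mice aged 1 month, with bone marrow given as the tissue, and no transgene or treatment separated the groups. The labels give the mice as male and the study's methods as female. The labels also describe a culture of the sorted cells on fibronectin in endothelial growth medium before RNA was extracted. They call the samples biological replicates but do not give the number of mice behind each, so p-values measure the spread between these samples.

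A miRNA is cut from the stem of a hairpin precursor, and either arm of the stem, 5p or 3p, can be loaded into the silencing complex while the other is usually degraded. The complex finds its targets mainly by pairing with bases 2 to 8 of the miRNA, the seed. MiR-195a-5p and miR-497a-5p belong to the miR-15/16 family, which is best known for restraining the cell cycle, and in the study the locus was of interest for vessel growth in bone.

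The mature sequences, from RefSeq on GRCm38.p6, are printed with the seed in capitals because the seed places the 5p arms in a family and sets the 3p arms apart:
miR-195a-5p: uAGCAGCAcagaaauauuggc
miR-497a-5p: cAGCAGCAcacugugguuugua
miR-195a-3p: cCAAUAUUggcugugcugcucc
miR-497a-3p: cAAACCACacugugguguuag
Both 5p arms share the seed, and 12 of 21 bases are the same when they are aligned from the 5′ end. They lie on the plus strand, miR-497a-5p at chr11:70234730-70234751 and miR-195a-5p at chr11:70235062-70235082. The 3p arms lie at chr11:70234770-70234790 (miR-497a-3p) and chr11:70235100-70235121 (miR-195a-3p). The Mir497 and Mir195a hairpins are 241 bases apart. In the annotation used, no gene other than miRNA genes overlaps the stretch from one to the other, the protein-coding gene before it is Bcl6b, 4918 bases away, and the one after it is 0610010K14Rik, 68 bases away. The miRNA gene Mir497b overlaps Mir497 on the minus strand.

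Each miRNA was read by a shorter and a longer probe of 15 spots each. The probes are printed 5′ to 3′, with the base that only the longer probe has in capitals, because the agreement of the probes is one of the comparisons below:
miR-195a-5p probes: gccaatatttctgtgctg and gccaatatttctgtgctgC
miR-497a-5p probes: tacaaaccacagtgtgctg and tacaaaccacagtgtgctgC
miR-195a-3p probes: ggagcagcacagc and ggagcagcacagcC
miR-497a-3p probes: ctaacaccacagtgtg and ctaacaccacagtgtgG
Every probe pairs with the 3′ part of its miRNA without a mismatch. The shorter 5p probes, of 18 and 19 bases, reach back to base 4 of the miRNA, and the longer ones, of 19 and 20 bases, to base 3. The miR-195a-3p probes are the shortest, of 13 and 14 bases, and pair from base 10 and base 9. The miR-497a-3p probes, of 16 and 17 bases, pair from base 6 and base 5.

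Some facts of the arrays bear on every value. The type H samples shared 1 slide and the type L samples a second one, so the cell types cannot be told apart from their slides. Of 10 control features with signal well above background on every array, 10 were brighter in the type H samples before normalization. The difference was 0.22 to 1.46 (log2), with a median of 0.61. A type H array had 477 to 510 detected probes, and a type L array had 543 to 579. After normalization the correlation over the 415 probes detected on all 6 arrays was 0.998 to 0.999 within a cell type and 0.927 to 0.943 between cell types. The cell type labels were set against listed miRNAs. All 4 listed endothelial miRNAs, the arms of miR-126a and miR-126b, were detected on 0 of 6 arrays. The probe totals of miR-126a-3p and miR-126a-5p reached 1.40 at most. All 6 listed haematopoietic miRNAs, miR-142a, miR-223, miR-144, miR-451a and miR-150 among them, were also detected on 0 arrays. Of the 6 listed stromal and mural miRNAs, 5 were detected on all 6 arrays, and miR-145a-5p was detected on 3 type H and 2 type L arrays. Their summed level was 808 to 1026 signal units on the type H arrays and 703 to 808 on the type L arrays. By limma at the level of summed probes, described below, miR-143-3p changed by 1.1 between type L and type H, miR-214-3p by 0.64 and miR-199a-5p by 0.31. All of these were higher in type H and past the threshold. The fitted change of miR-145a-5p was 2.75, higher in type H. Its type L level of 0.25 (log2), with 1 type L array at 0, lies near the value to which low signals were raised, so it is given without a test. MiR-140-3p changed by -0.22 and was past the threshold, and miR-199a-3p changed by 0.03 and was not. The groups are therefore named by their sort labels, and the part of other cells in the values was not tested. In such samples fewer cells with a miRNA and less of it per cell cannot be told apart.

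The deposited total of a probe is a fluorescence intensity after background subtraction, given here in the scanner's signal units before any normalization. MiR-195a-5p was bright on every type H array and dim on every type L array. Its longer probe had totals of 106, 86.9 and 82.1 on H1, H2 and H3, and of 7.97, 9.68 and 9.28 on L1, L2 and L3. The lowest type H value lay far above the highest type L value. Its shorter probe had totals of 40.8, 32.2 and 31.5 on the type H arrays and of 2.15, 2.86 and 2.22 on the type L arrays. A probe was called detected on an array when its total was over 3 times its error and its miRNA carried the deposited detection flag. By that rule the longer probe was detected on all 6 arrays, and the shorter one on all 3 type H arrays but only on L2 among the type L arrays.

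MiR-497a-5p followed the same pattern. Its longer probe had totals of 105, 89.0 and 80.8 on the type H arrays and of 8.83, 10.2 and 9.80 on the type L arrays. Its shorter probe had totals of 47.3, 39.0 and 37.0 on the type H arrays and of 2.62, 2.91 and 3.29 on the type L arrays. The cell types did not overlap for either probe, and both probes were detected on all 6 arrays. H1 was the brightest of the type H arrays for every 5p probe.

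The 3p arms were near or below the limit of the arrays. The longer miR-195a-3p probe had totals of 0.54, 0.37 and 0.019 on the type H arrays, with errors of 0.67 to 0.75, and was detected on none of them. On the type L arrays it had totals of 4.0, 3.58 and 3.20, with errors of 0.76 to 0.89, and was detected on all 3. The shorter miR-195a-3p probe, with totals of 0.17 to 0.38 on the type H arrays and of 2.11, 2.19 and 1.59 on the type L arrays, was detected on L2 alone. Both probes were thus brighter on every type L array than on any type H array, opposite to the 5p arm of the same hairpin. Neither probe of miR-497a-3p was detected on any array, with totals between -0.57 and 0.15.

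**Figure D1:**
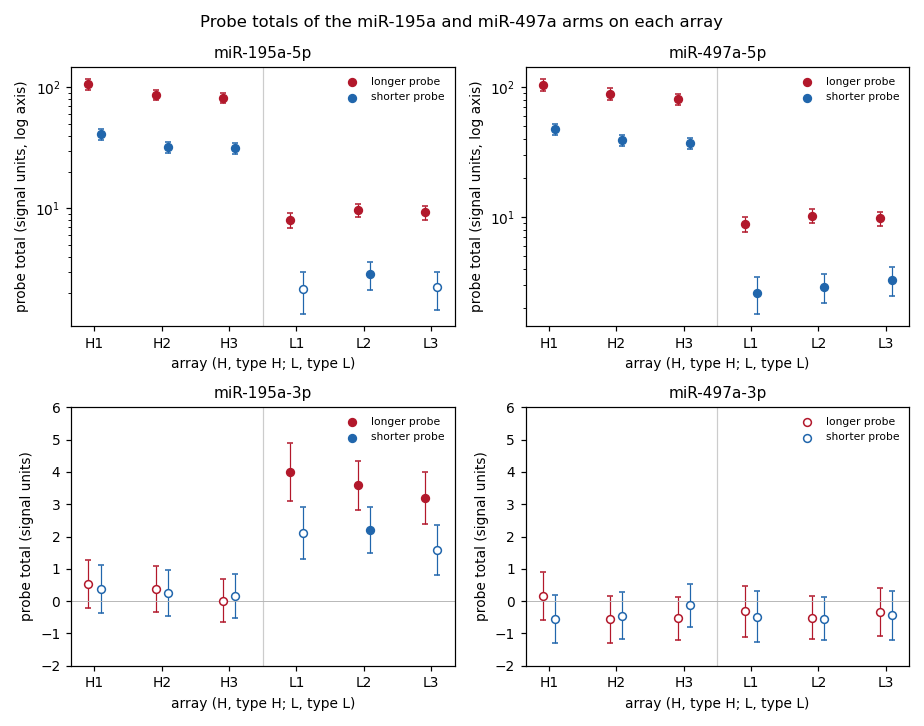
Deposited probe totals of the 4 miRNAs on each array, in signal units, with a log axis for the 5p arms and a linear axis for the 3p arms. Filled points were detected, open points were not, and bars are the deposited error of the total. The mean totals of the 5p probes are 9.51 to 14.4 times higher on the type H arrays, and the miR-195a-3p probes are higher on the type L arrays.

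The spots behind these totals were uniform on the type H arrays. For the longer miR-195a-5p probe the processed signal of single spots ran from 358 to 525 over the type H arrays and from 28.6 to 52.3 over the type L arrays, without spots called outliers. Spots of 1 array differed from each other by a coefficient of variation of 3.14 to 4.42% on the type H arrays and of 7.40 to 14.6% on the type L arrays. All 45 type H spots and all 45 type L spots of this probe were well above background by the deposited flag. The longer miR-497a-5p probe ran from 345 to 531 and from 32.5 to 53.7, again with 45 of 45 spots above background in each cell type. For the shorter probes the flag was given to 45 of 45 type H spots each, but to 5 of 45 type L spots for miR-195a-5p and to 12 of 45 for miR-497a-5p. There the spots of 1 type L array varied by 23.9 to 42.0% for miR-195a-5p and by 29.6 to 31.9% for miR-497a-5p. The type L values of the shorter probes are thus means over dim spots. For the longer miR-195a-3p probe, 19 of 45 type L spots and 2 of 45 type H spots were flagged, and for both miR-497a-3p probes 0 of 45 were in each cell type. Spots of 1 array are technical repeats and were not used as replicates.

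**Figure D2:**
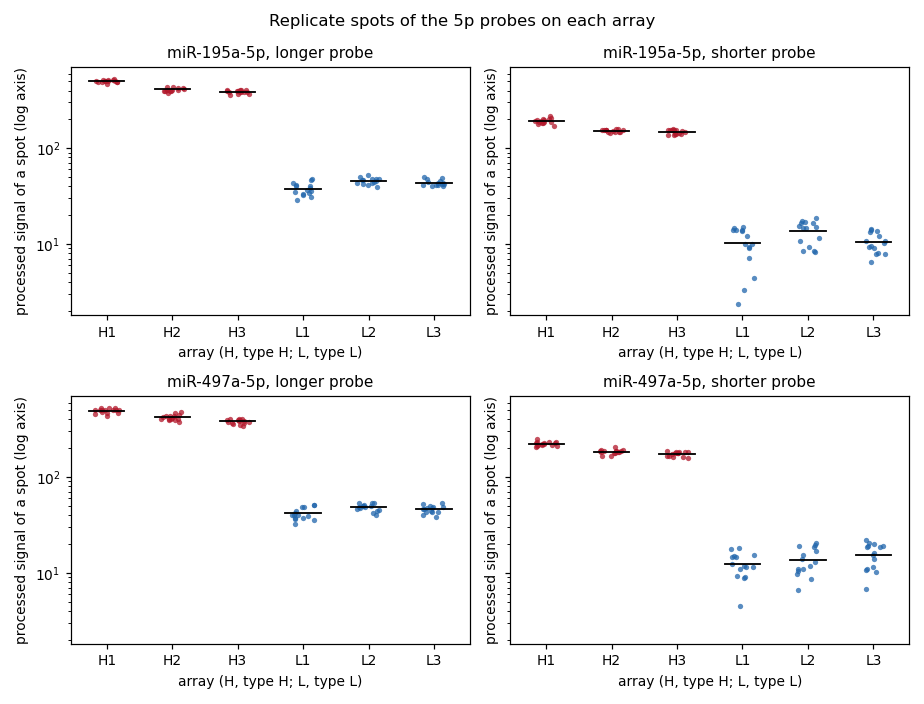
Processed signal of each replicate spot of the 5p probes on a log axis, by array, with spots called outliers left out. Black bars are the mean of an array. Type H spots (red) and type L spots (blue) do not overlap for any of the probes, and the shorter probes scatter most on the type L arrays.

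Type H was then compared with type L over all probes. Totals were quantile-normalized, raised to 1 where they were lower, and put on the log2 scale. A probe was kept when the 3 arrays of either cell type all detected it, which left 577 probes, and 5 of the 8 probes of the locus were among them. The probes that did not pass were the shorter miR-195a-3p probe and both miR-497a-3p probes. The threshold was an adjusted p under 0.05 by limma with Benjamini-Hochberg adjustment, which 86.8% of all probes tested passed. A call was therefore the usual outcome on these arrays, and the probes are described by the size of their change.

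On the normalized log2 scale the longer miR-195a-5p probe had a level of 6.50 ± 0.016 (SD, n = 3) in type H and 3.02 ± 0.15 in type L. The change was 3.49 (SE 0.076), or 11.2-fold, with an adjusted p of 1.76e-06 by limma. The shorter probe was measured above the detection limit on only 1 of 3 type L arrays, so its fitted change of 4.05 rests on type L values mostly under that limit and is given without a test. Before normalization its mean total was 14.4 times higher in type H. With L1 and L3 set at 3 times its error, a limit chosen after the values were seen, type H was 13.6 times higher. For miR-497a-5p the longer probe had a level of 6.50 ± 0.031 in type H and 3.12 ± 0.094 in type L. Its change was 3.37 (SE 0.054), or 10.4-fold. The shorter probe changed by 4.03 (SE 0.084), or 16.4-fold, and each of these had an adjusted p of 1.76e-06 by limma. By the size of the fitted rise in type H, the longer miR-195a-5p probe took place 3 of 577 and the longer miR-497a-5p probe place 4, behind both shorter probes, of which that for miR-195a-5p was detected on 1 of 3 type L arrays. Each 5p probe was higher in 3 of 3 type H arrays than in any type L array, which was so for 42.6% of the probes tested. Over all 577 probes 249 rose in type H (43.2%) and 252 fell (43.7%), with a median change of -0.01. Under scaling by the 75th percentile of probes detected on all 6 arrays that median was -0.21 and 38.7% of the calls were rises, against 49.7% under quantile normalization. Each 5p probe kept its direction under every scaling tried.

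The longer miR-195a-3p probe was lower on all type H arrays, as were 43.8% of the probes tested. It passed the filter through type L and was detected on no type H array, where all 3 values were raised to 1, so its fitted p tests a fixed value and its change is given as a bound. Type L was 2.65-fold brighter when the type H arrays were set at the lowest signal of any detected probe. That signal lies under 3 times this probe's own error, so 2.65 is not a lower bound. When they were set at 3 times this probe's own error on each array, in signal units, type L was at least 1.68-fold brighter. That second limit was chosen after the values were seen. The fitted change of -1.67 depends on the value of 1 to which low signals were raised. It was -3.62 with a value of 0.1, 0.00 with 16, -3.32 and -3.41 with the mean and the median of the spots, and -0.24 after normexp.

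**Figure D3:**
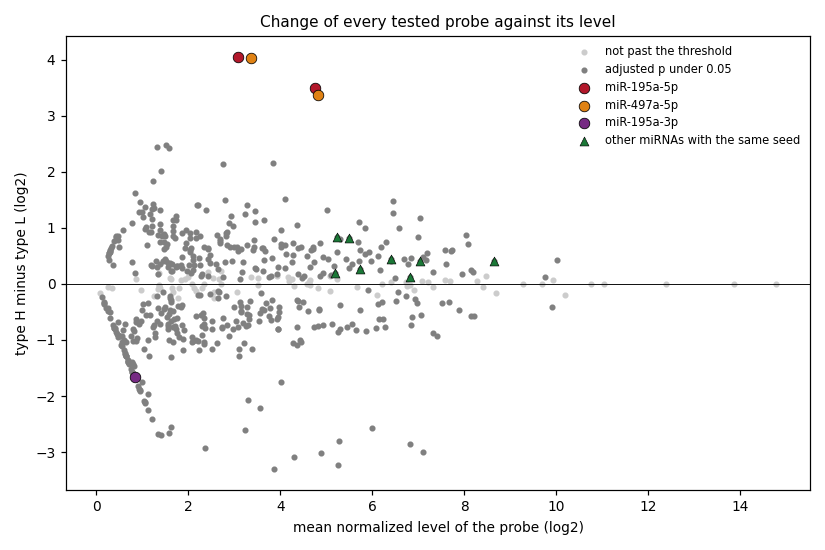
Change between type H and type L against the mean normalized level for the 577 probes tested, both on the log2 scale. Large circles mark the probes of the locus and triangles the other miRNAs with the same seed. The 5p probes stand above all other points at changes of 3.37 to 4.05, the miR-195a-3p probe lies at -1.67, and the triangles lie between 0.13 and 0.83.

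Whether the longer and the shorter probe of a miRNA changed alike was tested on their difference within each array, which takes out the overall level of the array. For miR-497a-5p the longer probe was above the shorter by 1.14, 1.13 and 1.06 (log2) on H1, H2 and H3 and by 1.86, 1.85 and 1.60 on L1, L2 and L3. The gap was thus smaller on every type H array than on any type L array, and how many other miRNAs showed this was not counted. The difference changed by -0.66 (SE 0.077), with an adjusted p of 0.00559 by limma over the 169 miRNAs with both probes detected on all 6 arrays, of which 29.0% were called, 8.88% lower and 20.1% higher. It was the lowest of the 169 values, whose median was 0.03 and whose 5th and 95th percentiles were -0.25 and 0.31. The sign of the change turned in 2 alternatives that lift dim signals by construction. It was 0.45, with an adjusted p of 1.47e-04 by limma, after normexp background correction with an offset of 50. It was 1.11 when values under 16 were raised to 16. There both probes are at 16 on every type L array, so that change is given without a test.

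MiR-195a-5p was not among the 169, since its shorter probe was detected on 1 type L array only. Its longer probe was above the shorter by 1.36, 1.42 and 1.37 on the type H arrays and by 1.98, 1.80 and 2.08 on the type L arrays. When pairs that passed the filter in at least 1 cell type were taken, a choice made after the values were seen, 229 miRNAs were tested and 29.3% were called. There miR-497a-5p changed by -0.66, with an adjusted p of 0.00345 by limma. The change of -0.56 for miR-195a-5p is given without a test, since its shorter probe was under the detection limit on L1 and L3. The shorter probe of miR-497a-5p was dim in type L, at a level of 1.35 ± 0.16, and that of miR-195a-5p at 1.07 ± 0.26. Of the 169 pairs, 37 had a shorter probe under 2 in the dimmer cell type. Their changes ran from -0.66 to 0.75, and those of the other 132 pairs from -0.41 to 0.43. The part of dim signal in the probe difference was not tested. All the same, both probes of both 5p miRNAs changed in the same direction, as did both probes of 150 of the 169 miRNAs.

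**Figure D4:**
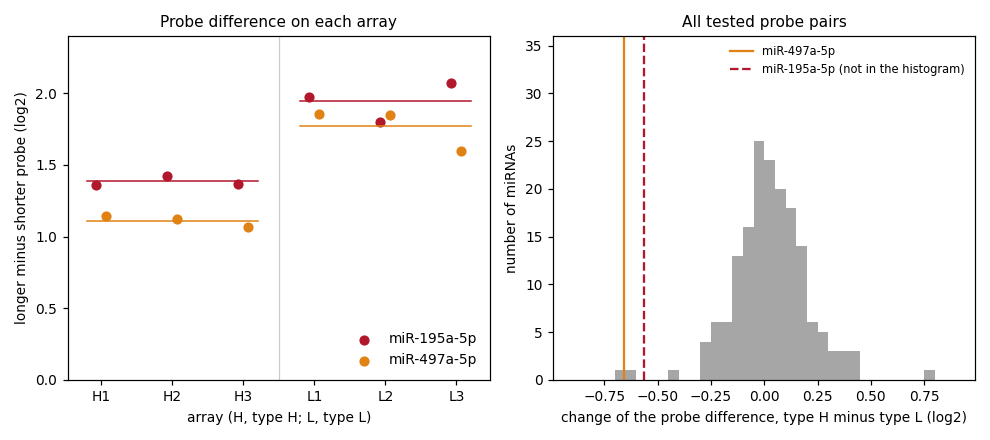
Left, longer minus shorter probe (log2) for both 5p miRNAs on each array, with lines at the mean of each cell type. Right, change of that difference between type H and type L for the 169 tested miRNAs (grey), with miR-497a-5p (solid line, -0.66) and miR-195a-5p (dashed line, -0.56) at its lower end.

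The arms of Mir195a were compared in the same way, with the brighter probe of each arm. The 5p arm was above the 3p arm by 6.51, 6.51 and 6.48 (log2) on the type H arrays and by 0.99, 1.52 and 1.54 on the type L arrays. With the 3p arm in type H at the lowest signal of any detected probe, that difference changed by 4.89, which is not a lower bound. With the 3p arm at 3 times its own error the value was 4.23. It joins a normalized 5p change with a 3p limit in signal units, so the 2 values are on different scales. The fitted value of 5.15 rests on a 3p arm raised to 1 on all type H arrays and is given without a test. It was 7.11 when values were raised to 0.1 and 2.5 when they were raised to 16. Of the 29 hairpins with both arms past the filter, 65.5% were called and 34.5% were called higher in type H. For Mir497 no such comparison could be made, since its 3p arm was not detected.

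The totals of the detected probes of each miRNA were next summed, to place the members among all detected miRNAs. These ranks order array signals, and probes differ in how brightly they bind, so they do not order amounts of miRNA between species. On the type H arrays miR-195a-5p took place 49 of 281, 48 of 263 and 49 of 264, and miR-497a-5p took places 46, 45 and 46. On the type L arrays miR-195a-5p took place 196 of 295, 149 of 309 and 181 of 298, and miR-497a-5p took places 158, 146 and 151. L2, where the shorter miR-195a-5p probe was detected and so counted, gave the place nearest to the top among the type L places of miR-195a-5p. Both miRNAs were thus at places 45 to 49 on the type H arrays and at places 146 to 196 on the type L arrays. MiR-195a-3p took place 243, 228 and 267 on the type L arrays and had no place on the type H arrays.

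By mean signal in type H, miR-195a-5p had 127 ± 17.9 (SD, n = 3), between let-7g-5p at 127 ± 18.3 and miR-199b-5p at 115 ± 16. MiR-497a-5p had 133 ± 17.5, between miR-99a-5p at 137 ± 19.2 and miR-103-3p at 129 ± 17.1. None of these neighbours differed from the member by more than its SD. That SD, from sums before normalization, includes differences in brightness between arrays, and differences within arrays were not tested. In type L, miR-195a-5p had 9.93 ± 2.36, between miR-712-5p at 9.99 ± 0.41 and miR-1249-3p at 9.84 ± 0.093. MiR-497a-5p had 12.6 ± 0.96, between miR-6984-5p at 12.6 ± 0.37 and miR-365-3p at 12.3 ± 1.06. MiR-195a-3p had 4.33 ± 1.32, between miR-872-5p at 4.50 ± 0.50 and miR-7224-3p at 4.31 ± 1.43. These differences too were smaller than the SD of the member.

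**Figure D5:**
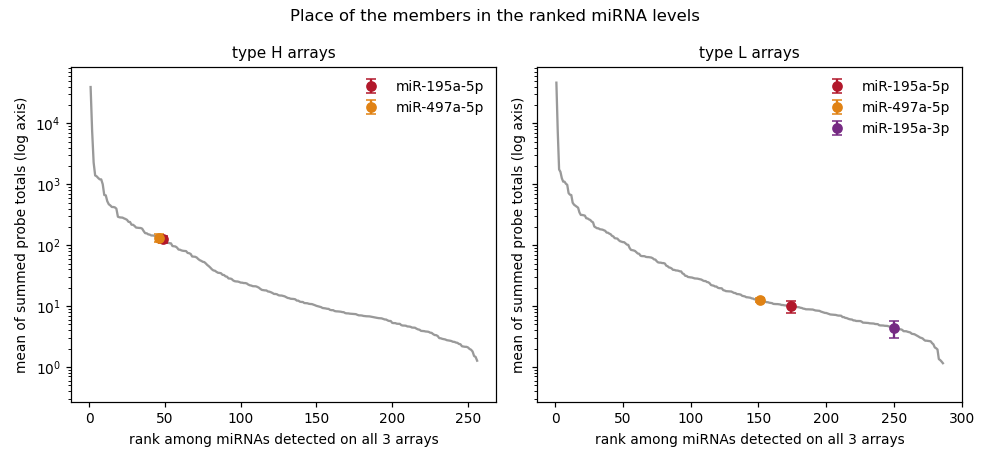
Mean of summed probe totals (log axis) against rank for the 256 miRNAs detected on all type H arrays and the 286 detected on all type L arrays (grey line). Points are the members with the SD over 3 arrays. Both 5p arms move from ranks 46 and 49 in type H to ranks 151 and 174 in type L, and miR-195a-3p has a place in type L only, at 250.

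At the level of summed probes 311 miRNAs passed the filter, and 83.9% of them were past the threshold by limma. MiR-195a-5p changed by 3.80 (SE 0.19), with an adjusted p of 2.60e-05, and miR-497a-5p by 3.54 (SE 0.061), with an adjusted p of 5.34e-07, both by limma, the highest and the next highest rise of the 311. The fitted change of miR-195a-3p was -1.69, which again rests on the value of 1 and is given without a test, and 39.2% of miRNAs were called lower. MiR-195a-5p minus miR-497a-5p was -0.10, -0.11 and -0.10 (log2) on the type H arrays and -0.56, -0.05 and -0.47 on the type L arrays. The sum counts both miR-195a-5p probes on L2 but only the longer one on L1 and L3, and both miR-497a-5p probes on all arrays. Leaving out the shorter probe lowers the sums on L1 and L3, so the change of 3.80, its p and its place rest on this counting. Their changes differed by 0.26 (exact two-sided permutation p = 0.40, n = 3 against 3), and by 0.44 without L2 (exact p = 0.10). The smallest p that 3 against 3 arrays allow is 0.10, so this test could not pass the threshold and says nothing on whether the changes differ. The longer probes alone, detected on all 6 arrays, changed by 3.49 and 3.37.

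The deposited column with 1 total per miRNA was left out of these values, since on 65 to 85 detected miRNAs per array it exceeds the sum of the miRNA's own detected probes. For miR-195a-5p it read 86.6 on L1 and 95.9 on L3, where its own probes sum to 7.97 and 9.28. With that column the change of miR-195a-5p was 1.33, with an adjusted p of 0.25 by limma, while miR-497a-5p changed by 3.57. With the second deposited table, of normalized log2 values, miR-195a-5p changed by 3.81 and miR-497a-5p by 3.55.

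By the distance between profiles over the 6 arrays, each centred on its mean, the miRNA nearest to miR-195a-5p was miR-497a-5p and the reverse, at a distance of 0.50 on the log2 scale. Next for both came miR-96-5p, at 1.00 from miR-195a-5p and 0.56 from miR-497a-5p, and miR-7241-5p, at 1.11 and 0.67. MiR-96-5p and miR-7241-5p were each detected on 3 type H arrays and on 0 type L arrays. Their type L values were raised to 1, so these distances depend on that value. MiR-195a-3p lay nearest to miR-466j, miR-7048-5p and miR-669o-5p, at 0.42, 0.55 and 0.70, all detected on the type L arrays only. Like miR-195a-3p, they were raised to 1 on every type H array, so their nearness follows in part from that value.

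The seed of the 5p arms is shared by 8 other miRNAs on the array, among the 1608 whose names matched a RefSeq mature sequence. Those that were detected are printed with the seed in capitals, to show where they match the members and where they differ over the bases that the probes pair with:
miR-16-5p: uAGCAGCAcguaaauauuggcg
miR-15a-5p: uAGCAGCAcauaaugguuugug
miR-15b-5p: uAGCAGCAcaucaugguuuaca
miR-322-5p: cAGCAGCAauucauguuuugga
Of the 16 probes of these 8 miRNAs, 8 passed the filter, each detected on all 6 arrays. They are both probes of each miRNA printed above, so they are not 8 separate cases. Of the 8, 8 rose in type H, against 43.2% of all probes. With detection required on all 6 arrays, which left 415 probes, 56.9% of the calls were rises and the median change was 0.10. The changes of the 8 probes ran from 0.13 to 0.83 with a median of 0.40, where the 5p probes of the locus changed by 3.37 or more. At the level of summed probes, where 44.7% of miRNAs rose, miR-15a-5p, which is made from another locus, had a summed level of 108 ± 13.8 signal units in type H and 63.8 ± 3.69 in type L, and its change was 0.72 (SE 0.037). MiR-15b-5p changed by 0.65 (SE 0.035), miR-322-5p by 0.37 (SE 0.045) and miR-16-5p by 0.21 (SE 0.038). MiR-195b, miR-6342, miR-6353 and miR-6419 were detected on 0 arrays. Under scaling by the 75th percentile of probes detected on all 6 arrays, the 8 probes changed by 0.17 to 0.78. There 8 were called higher, against 32.9% of all probes tested. Without normalization they changed by 0.15 to 0.77 and 6 were called higher, against 29.6% of all probes tested. The median over all probes tested moved by -0.20 and -0.21 under these settings.

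The sequence nearest to the miR-195a-5p probes was miR-16-5p, which matches 17 of the 19 bases that the longer probe pairs with, the longest run being 10. MiR-16-5p was bright in both cell types, with a summed level of 157 ± 20.2 in type H and 139 ± 9.06 in type L. Between the cell types miR-16-5p changed by 0.21 and the longer miR-195a-5p probe by 3.49. MiR-195b, with 16 of the 19 bases, was not detected. Nearest to the longer miR-497a-5p probe was miR-497b, with 16 of 20 bases and detected on 0 arrays, then miR-15a-5p with 16 and miR-15b-5p with 15. MiR-15b-5p was the brightest of these, at 669 ± 87.5 in type H and 446 ± 29.5 in type L. The probes of miR-195a-3p matched miR-2139 in 12 of 14 bases and miR-16-1-3p in 11, and neither was detected.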

How the data were processed

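Agilent 1-colour mouse miRNA arrays carried RNA of type H ECs (3 arrays) and of type L ECs (3 arrays). The authors extracted background-subtracted spot intensities and a total with its error for each probe with Feature Extraction 10.7.1.1. As deposited, these intensities are not normalized across arrays. A second deposited table, of log2 values quantile-normalized according to the methods, served only as an alternative. The design number of the array differs between file header and methods. For the labelling, the labels describe amplified cRNA and the methods small RNA carrying Cy3.

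Here probe totals were used in place of the total per miRNA. They were quantile-normalized over all 4415 probes, raised to 1 where they were lower, and put on the log2 scale. A probe was detected where its total was over 3 times its error and the deposited flag of its miRNA was set. On every array this rule and the flag disagreed for 0 miRNAs. Probes detected on all arrays of either cell type entered a linear model per probe (limma 3.58.1 in R 4.3.3, lmFit with eBayes), type H minus type L. P-values were adjusted by Benjamini-Hochberg over all of them, with a threshold of 0.05. The same fit was run on the difference of longer and shorter probe, on the difference of the arms and on the sum of detected probes. The methods name no test for the arrays, and the t-test of their statistics section was run as an alternative. Where a whole cell type lacked detection of a probe, its fold is given with that cell type set at a limit. The number of arrays limits the precision. Other miRNAs were named by a rule: those that share the seed, the 3 nearest in profile, the neighbours in rank and the nearest in sequence. The members, lists and tests were chosen with earlier results of these data known. Alternatives covered the scaling, the signal, the low value, the filter, the test, array weights, a block for the replicate number, and leaving out each array in turn.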

Additional observations from a re-analysis of the deposited data

How the results depend on the processing

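The longer and shorter 5p probes kept their direction in each of the 20 or 21 alternatives that gave a value. Their calls are not counted over these, since with a low value of 16 every type L value of these probes is 16. For miR-195a-5p the change ran from 2.25 to 3.58 (log2, longer probe) and from 1.12 to 4.24 (shorter probe), and for miR-497a-5p from 2.22 to 3.45 and from 1.39 to 4.14, the lowest values coming from normexp or from a low value of 16. With a low value of 16, most 3p and type L signals are set to the same number. There 137 probes, 11 hairpins and 108 miRNAs were called against 501, 19 and 261. The change of miR-195a-3p was 0.00 for the longer probe and 0.00 at the level of summed probes. That of longer minus shorter miR-497a-5p probe was 1.11, given without a test since both probes are at 16 on every type L array. With normexp that change was 0.45. Type L over type H for the longer miR-195a-3p probe was at least 0.75 (log2, signal units) with the error of the probe itself. With the lowest signal of any detected probe it was 1.40 on the normalized scale. With the deposited column of 1 total per miRNA, miR-195a-5p changed by 1.33, and with the deposited log2 table by 3.81.

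Under both 75th percentile scalings and without normalization 69 probe pairs were called, with the change for miR-497a-5p at -0.56. With normexp 70 were called. Leaving out 1 array each, the probe pairs called ran from 28 to 47, against 49, with 28 without H3 and 32 without H1. The probes called ran from 483 to 501, the hairpins from 16 to 21 and the miRNAs from 252 to 260. MiR-195a-5p then ran from 3.44 to 3.58 (longer probe) and from 3.98 to 4.24 (shorter probe), miR-497a-5p from 3.33 to 3.45 and from 4.0 to 4.14, and the longer probe of miR-195a-3p from -1.73 to -1.52. The difference of probes of miR-497a-5p ran from -0.74 to -0.61, the fitted difference of the Mir195a arms from 4.95 to 5.25 (2.5 to 7.11 over the low values of 16 and 0.1), and the summed probes of miR-195a-5p from 3.69 to 4.07, of miR-497a-5p from 3.49 to 3.63 and of miR-195a-3p from -1.92 to -1.27.

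Whether samples with the same replicate number are paired is not known. The deviations of arrays with the same number correlated at 0.04, -0.08 and 0.09, which cannot settle it. With the replicate number as a block 493 probes and 35 probe pairs were called, and no call of a member that is given with a test was lost. Under the 75th percentile over all probes 39.8% of the calls were rises, and without normalization 37.9%. With detection required on all 6 arrays 56.9% of the calls were rises and the shorter miR-195a-5p and the longer miR-195a-3p probe gave no value. The latter gave none either where 50% of spots had to be above background. Without a filter most probes have no spread between arrays, so those p-values are not reliable.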
